A study of Homo sapiens with 6 samples.

Results

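Matrix metalloproteinases (MMPs) and their tissue inhibitors (TIMPs) were followed in 3 lung cancer cell lines on 6 Clarion S microarrays. The group was set by gene symbol, as 10 listed genes: the collagenases MMP1 and MMP13, the gelatinases MMP2 and MMP9, the matrilysin MMP7, the stromelysin MMP10, the membrane-anchored MMP14, and the inhibitors TIMP1, TIMP2 and TIMP3. Of these 10 genes, 9 had a probe set among the 17687 named genes used, each with a single probe set, and TIMP2 was not analysed here. Of the 9, 8 gave a signal above the array background on at least 1 array, as did 10362 of the 17687 named genes.

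PC-9 and HCC827 come from non-small cell lung cancers and are labelled EGFR mutant, meaning that the epidermal growth factor receptor carries a mutation, and H322 is labelled wild-type for this receptor. In each of these mutant lines a control was set against erlotinib, an inhibitor of the receptor's kinase, given at 0.01 µM for 6 hours. In H322, the source of the remaining arrays, a control was set against EGF, a ligand of the receptor, at 100 µg/ml as the labels state it, also for 6 hours. The cytokine TNFa is listed in the culture medium, and the labels do not say whether the controls had it, so its part cannot be told apart from that of the treatments. Each line and condition has 1 array. The erlotinib comparison therefore has 2 lines as replicates and the EGF comparison has none. The p-values rest on the spread over these arrays, mostly that of other genes, and not on repeated cultures of a line.

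MMPs are zinc-dependent proteases that are made as inactive precursors and, once activated, cut collagens, other matrix proteins and many cell surface proteins. TIMPs bind to the active site of MMPs and block it, and TIMP3 also inhibits several ADAM proteases. In tumours of epithelial origin MMP7 is typically made by the epithelial cells themselves, whereas MMP2 is mostly a product of fibroblasts. Many MMP promoters are known to carry sites for AP-1, the FOS-JUN transcription factor that growth factor signalling induces.

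Signals are given as the deposited intensity, a linear brightness in arbitrary units, or as log2(intensity + 1). The background of an array is here the 95th percentile of its 612 negative control probe sets, and it lay between 6.92 and 7.47 on the log2 scale. Between 48.8% and 52.4% of the named genes were above it on an array. All 8 epithelial markers examined, such as EPCAM and KRT8, were above it on all 6 arrays. Of 8 fibroblast markers measured at most 1 (COL1A2) was, of 8 leukocyte markers at most 3 (CD68, CSF1R and ITGAM), with the pan-leukocyte gene PTPRC below it on all arrays, and of 6 endothelial markers at most 1. A fold against a signal below background is a lower bound ("at least"), computed as if that signal equalled the background, and no fold is given between signals that both lay below it.

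The lines differed in which MMPs and TIMPs gave a signal above background. On the control arrays MMP7 and TIMP1 were above background in all 3 lines, as were 42.7% of all named genes. MMP9, MMP14 and TIMP3 were above it only in PC-9, a pattern seen in 2.73% of named genes. MMP13 was above it in HCC827 and H322 and not in PC-9 (2.14% of named genes), MMP10 only in H322 (2.06%) and MMP1 only in HCC827 (2.39%). MMP2 was below it on all 3 control arrays, like 43.6% of named genes, and on the treated arrays too. These patterns rest on 1 control array per line, and with the 99th percentile of the negative controls as background the control signals of MMP1 in HCC827, MMP7 in PC-9 and H322, MMP10, MMP13 and TIMP1 in H322, and MMP14 in PC-9 lay below it.

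**Figure D1:**
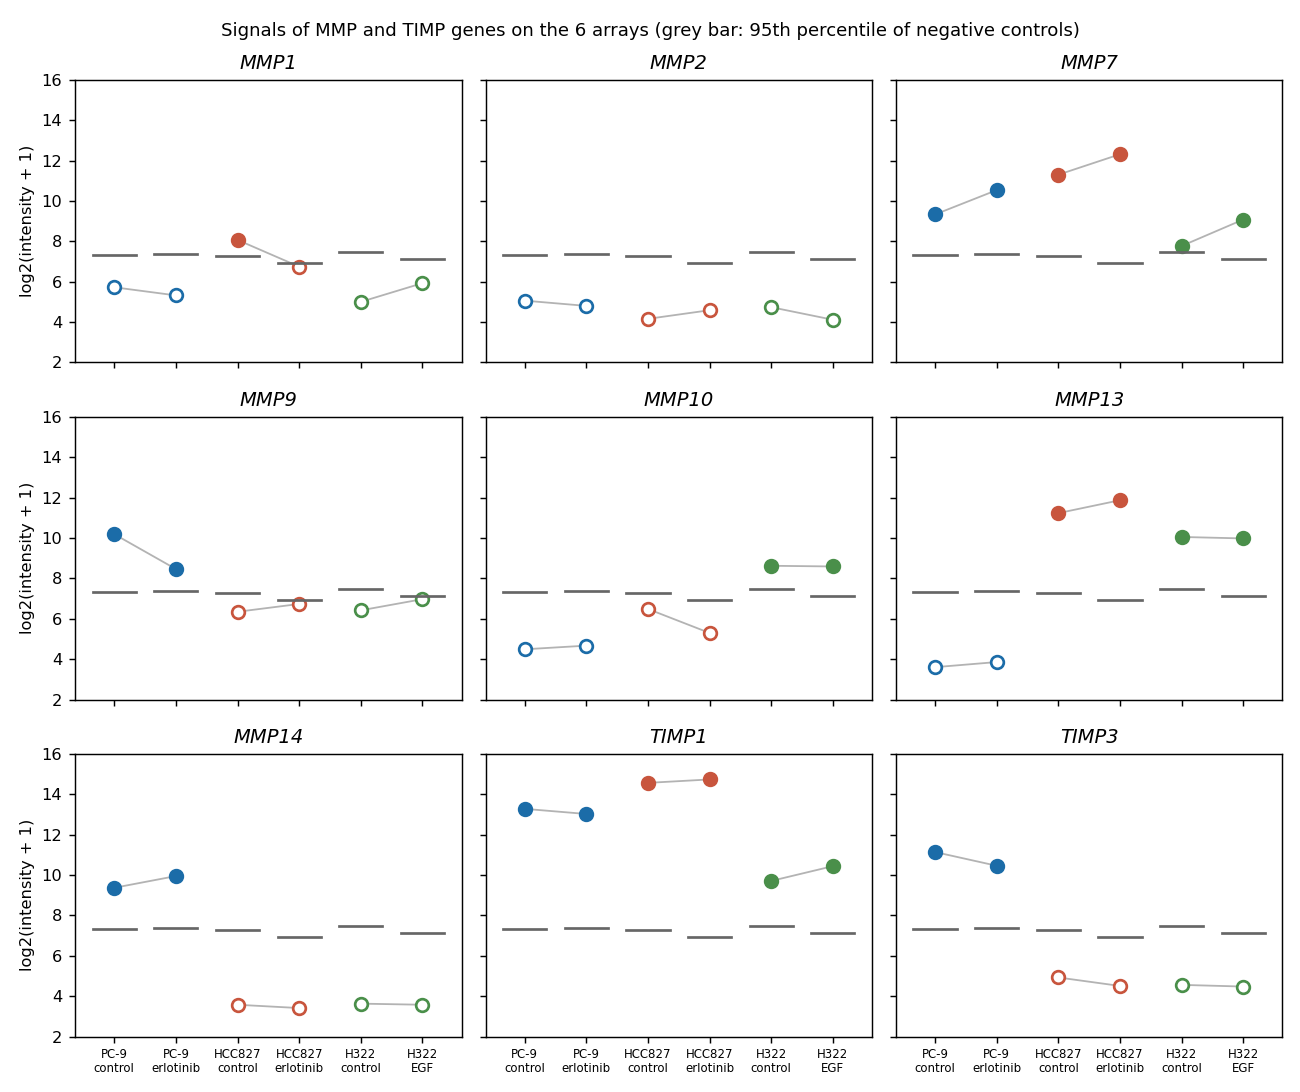
Signals of the 9 measured genes on the 6 arrays, as log2(intensity + 1), with 1 point per array, grey lines joining the control and treated array of a line, and a grey bar at the background of each array (the 95th percentile of its negative controls). Filled points lie above that level and open points below it: MMP14 and TIMP3 are filled only in PC-9, MMP13 only in HCC827 and H322, and MMP7 and TIMP1 on all 6 arrays.

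Between the control arrays of PC-9 and HCC827, 7 of the 9 genes differed at least 2-fold (counted where the higher of the signals reached the median probe set), against 22.5% of all named genes. Between H322 and PC-9 it was also 7 of 9, against 23.9%, and between H322 and HCC827 5 of 9, against 22.5%. These counts use the signals as deposited. The shares of all named genes include genes too dim to be counted. MMP1, counted in the first and the last, was at least 1.65-fold and 1.51-fold higher in HCC827 by the lower bound. Bounds of 2-fold or more were thus reached by 6, 7 and 4 of the 9 genes. All named genes were not counted by such bounds, so these counts have no share to be set against. No test is possible between single arrays. The range over the 3 controls was also set against the treated minus control differences, without a share of all named genes to compare with. It was wider than any such difference for each of the 9 genes, on signals as deposited. By lower bounds this was not shown for MMP1, which was at least 2.21-fold lower with erlotinib in HCC827. MMP2 was below background on all 6 arrays, so no fold is given for it. For TIMP1, which was above background on all 6 arrays, the controls spanned 4.86 log2 units and the largest difference with treatment was 0.73.

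MMP7, matrilysin, is a small secreted protease without the C-terminal hemopexin domain of most other MMPs. Its intensity was 642 in the PC-9 control and 1482 with erlotinib, 2516 in the HCC827 control and 5078 with erlotinib, and 217 in the H322 control and 539 with EGF. The treated array was brighter than the control array in each of the 3 lines, and HCC827 was the brightest and H322 the dimmest line. With erlotinib MMP7 rose by 1.11 ± 0.18 log2 units, or 2.16-fold (± gives the SE from limma here and for later changes, n = 2 lines). The adjusted p was 0.0365 in limma, and the gene had rank 149 of all genes by p. The log2 difference was 1.21 in PC-9 and 1.01 in HCC827, that is 2.31-fold and 2.02-fold. It was the only member of the 9 to pass, where 1.48% of all named genes passed. The call was lost when genes below background throughout were left out (limma adjusted p = 0.0559), when limma's trend of spread on level was dropped (0.155) and without the block for the line (1.0). Over the 8 alternatives the adjusted p of limma lay between 5.58e-06, with signals below background set to it, and 1.0. Signals set to background take the same value on an array, and limma borrows spread from all genes. The 5.58e-06 is therefore no measure of the spread over the 2 lines.

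With EGF in H322 the MMP7 signal was 2.48-fold higher, a log2 difference of 1.31. This was the third-highest difference among the 9107 genes above background in H322 on either array. With erlotinib MMP7 had rank 87 of 9041 such genes in PC-9 and rank 461 of 9378 in HCC827. No other member reached 2-fold higher with EGF, a size that 0.102% of named genes reached, and 0 of the 9 reached 2-fold lower, which 0.0848% did. The H322 control signal of MMP7, at 7.77 on the log2 scale, lay close to the negative control level of 7.47 on that array. It was below the 99th percentile of the negative controls, as were the EGF array in H322 and the PC-9 control. Of the 45 negative control probe sets that reached the median level in H322, 13 (28.9%) were at least 2-fold higher with EGF, against 0.199% of the named genes at that level. Of 48 such probe sets in PC-9, 31.3% were higher with erlotinib by this size and 25% lower, beside 1.80% and 3.44% of named genes at that level. Of 37 in HCC827, 24.3% were higher and 37.8% lower, beside 4.98% and 3.73% of named genes. The negative controls counted are the few of 612 whose higher array of the pair reached that level, a choice that favours large differences. Their shares and those of the named genes are therefore not like for like. Whether variation of this kind had a part in the differences of MMP7, MMP9 or MMP1 was not tested.

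Few genes were this much higher in all 3 lines. Of the 17687 named genes, 2 (0.0113%) were at least 2-fold higher in every treated minus control pair, MMP7 and CLEC2B, which encodes a C-type lectin receptor. CLEC2B was named after its values were seen. Its log2 differences were 1.73, 1.53 and 1.21 in PC-9, HCC827 and H322, with its HCC827 control below background, so that its fold in HCC827 was at least 1.2. With median centring or quantile normalization the MMP7 difference in HCC827 was 0.93 or 0.95, so that MMP7 no longer met this rule and CLEC2B alone did. When signals below background were set to it, MMP7 alone met the rule. The rule of all 3 pairs and these alternatives were chosen after seeing the data. The share of 0.0113% is therefore a description and no test of MMP7.

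**Figure D2:**
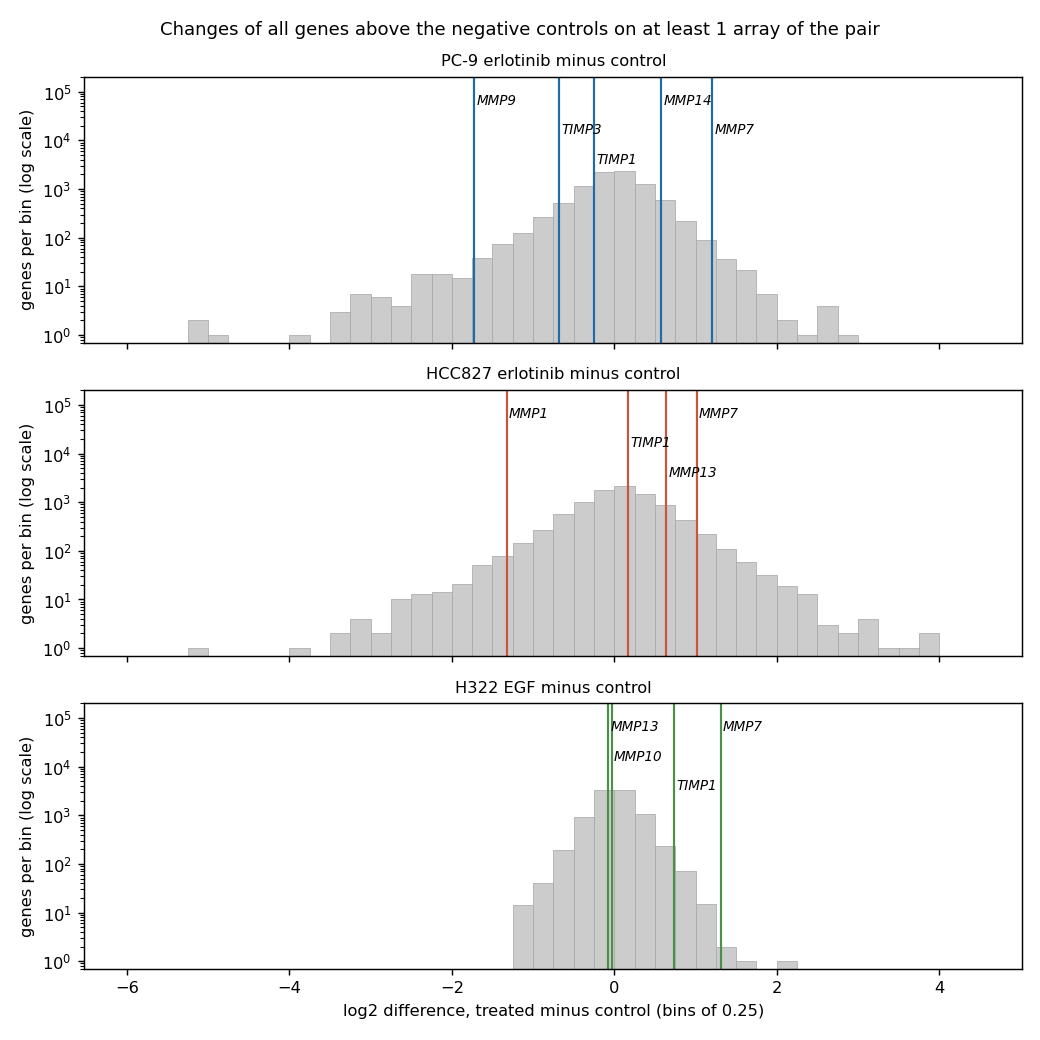
Log2 differences, treated minus control, of all named genes above background on 1 or both arrays of the pair, as counts per bin of 0.25 on a log scale, for erlotinib in PC-9 and HCC827 and EGF in H322. Coloured lines mark the MMP and TIMP genes above background in that pair: MMP7 lies to the right in all 3 panels, at 1.21, 1.01 and 1.31, and MMP9 to the left in PC-9, at -1.73.

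The sequence before the start of MMP7 is shown with that of MMP10, a neighbour of the same gene cluster, because both hold an AP-1 core and a TATA box at nearly the same places. The 250 bases before each annotated start were read from RefSeq (GRCh38.p14), at chr11:102530748-102530997 for MMP7 and chr11:102780629-102780878 for MMP10, both on the minus strand, and are written 5′ to 3′ along the gene. Capitals mark the AP-1 core TGANTCA, which reads the same on both strands, and the TATA box TATAAA.

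MMP7: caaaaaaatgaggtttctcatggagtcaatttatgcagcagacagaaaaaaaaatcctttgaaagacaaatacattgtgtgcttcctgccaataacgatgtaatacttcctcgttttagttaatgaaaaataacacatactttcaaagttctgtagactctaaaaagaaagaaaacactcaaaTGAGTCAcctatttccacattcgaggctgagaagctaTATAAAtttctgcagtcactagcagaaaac

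MMP10: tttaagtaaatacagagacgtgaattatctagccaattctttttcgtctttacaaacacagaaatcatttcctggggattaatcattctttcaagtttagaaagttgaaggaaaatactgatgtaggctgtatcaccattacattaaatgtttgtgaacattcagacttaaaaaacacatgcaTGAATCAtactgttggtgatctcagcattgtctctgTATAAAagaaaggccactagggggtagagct

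The AP-1 core begins 67 bases before the start in both genes, as TGAGTCA in MMP7 and TGAATCA in MMP10. The TATA box begins 30 bases before the start of MMP7 and 31 before that of MMP10. Among all 35116 promoters of this table, 6.57% held TGANTCA and 10.7% held TATAAA in the same window on either strand, and 1.07% held both. Promoters of 5 of the 10 members were in the table (MMP7, MMP10, MMP14, TIMP1 and TIMP3), and those of MMP14, TIMP1 and TIMP3 held neither motif. MMP7 also held AGGAAG, a core bound by PEA3 and other ETS factors, at 2 places on the strand opposite to the one printed, where it reads CTTCCT (28.7% of all promoters had AGGAAG on either strand), and TCAAAG, a core of TCF factors of the WNT pathway, at 2 places (11.2%). MMP10 was below background on all 4 arrays of PC-9 and HCC827, where MMP7 was above it on each.

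MMP1, MMP7, MMP10 and MMP13 lie in 1 cluster of 9 MMP genes on chromosome 11, in the order MMP7, MMP20, MMP27, MMP8, MMP10, MMP1, MMP3, MMP12 and MMP13. All 9 had a probe set, and those 4 genes were above background on at least 1 array, as were 10362 of the 17687 named genes. MMP20, MMP27, MMP8, MMP3 and MMP12 were below it on all 6. PC-9 had a signal above it only from MMP7, at an edge of the cluster, while HCC827 and H322 also had MMP13 at the other edge. Neighbours in the cluster thus differed in which lines they were above background in.

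**Figure D3:**
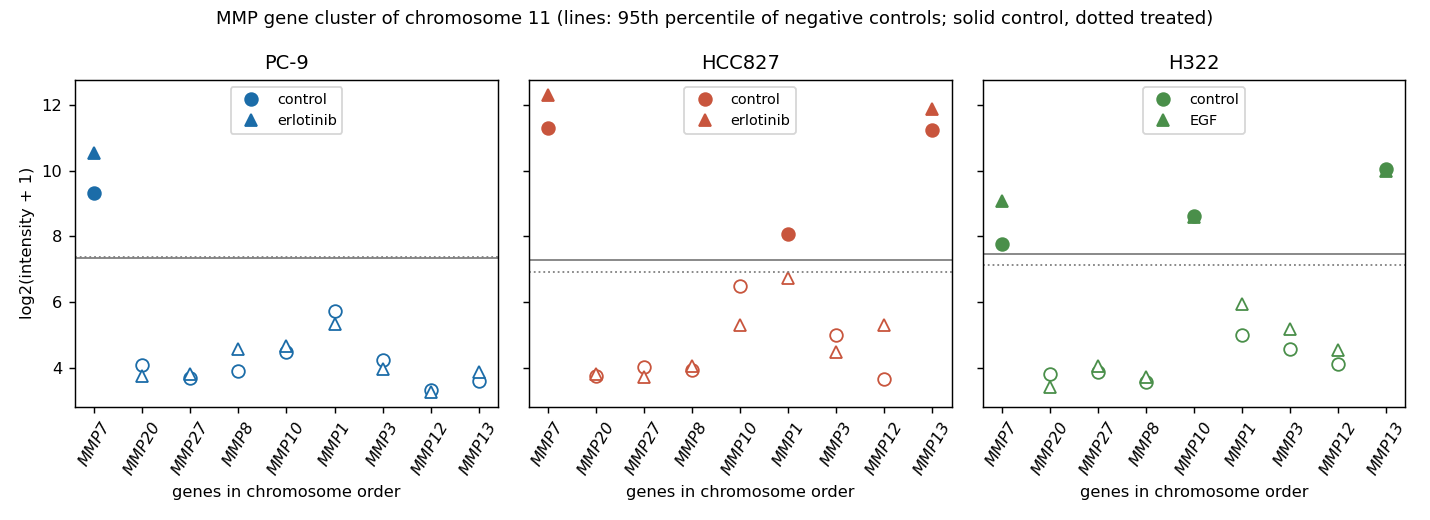
Signals, as log2(intensity + 1), of the 9 MMP genes of the chromosome 11 cluster in their order along the chromosome, with circles for control and triangles for treated arrays, filled where above the 95th percentile of the negative controls (solid line control, dotted line treated). PC-9 has 1 gene above that level, MMP7, and H322 has MMP7, MMP10 and MMP13 above it on both arrays. Points of different genes come from different probes and are not to be ranked against each other.

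The collagenases cut the triple helix of fibrillar collagen. MMP13, collagenase 3, had intensities of 2401 in the HCC827 control, 3741 with erlotinib, 1059 in the H322 control and 1007 with EGF, against 11.1 and 13.5 in PC-9. The signals of HCC827 and H322 were far above those of PC-9, with no overlap between lines: the control of HCC827 was at least 14.8-fold and that of H322 at least 6.54-fold above PC-9. Within a line MMP13 differed little with treatment, 1.56-fold higher with erlotinib in HCC827 and 1.05-fold lower with EGF in H322, and it did not pass in limma (0.45 ± 0.26, adjusted p = 0.511). MMP1, interstitial collagenase, was above background on 1 array only, the HCC827 control, at an intensity of 267. With erlotinib in HCC827 it was 106, at least 2.21-fold lower, and 1.92% of named genes were 2-fold lower there. The PC-9 values of MMP1 were 51.8 and 38.9 and those of H322 were 31.0 and 59.8, all below background. The mean log2 change of MMP1 with erlotinib was -0.86 ± 0.32 and did not pass (limma adjusted p = 0.272).

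The gelatinases cut denatured collagen and basement membrane collagen. MMP9 had an intensity of 1165 in the PC-9 control and 351 with erlotinib, a 3.31-fold lower signal. Of the members, MMP9 alone was 2-fold lower or more in PC-9 (1.78% of named genes were), and MMP7 alone was 2-fold higher or more (0.927%). In HCC827 the MMP9 signals were 80.3 and 105, and in H322 84.4 and 124, all below background. The log2 difference was -1.73 in PC-9 and 0.39 in HCC827, and the mean of -0.67 ± 0.46 did not pass (limma adjusted p = 0.581). When signals below background were set to it, MMP9 had -1.04 and passed (limma adjusted p = 0.00466, the lowest of 8 alternatives that reached 1.0), where the HCC827 difference is only that between the backgrounds of its arrays. MMP2 ranged from 16.3 to 32.4 over the 6 arrays, all below background, so these arrays give no fold for it.

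MMP10, stromelysin 2, can activate other MMP precursors. It was above background only in H322, with intensities of 393 in the control and 384 with EGF, a 1.02-fold difference. In HCC827 it was 88.4 in the control and 38.3 with erlotinib, and in PC-9 21.4 and 24.4, so no fold is given in these lines. Its mean log2 change with erlotinib was -0.50 ± 0.36 (limma adjusted p = 0.601). MMP14, a protease held in the plasma membrane that activates MMP2, had intensities of 660 in the PC-9 control and 988 with erlotinib, a 1.5-fold higher signal. Its 4 other signals lay between 9.65 and 11.4. The PC-9 control was at least 4.27-fold above that of HCC827 and at least 3.73-fold above that of H322. MMP14 did not pass with erlotinib (0.21 ± 0.30, limma adjusted p = 0.837).

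TIMP1, an inhibitor of most secreted MMPs, was above background on all 6 arrays. Its intensity was 9936 and 8331 in PC-9, 24244 and 27266 in HCC827, and 836 and 1389 in H322, control first in each. Both H322 signals were lower than the 4 signals of the other lines: the H322 control was 11.9-fold below that of PC-9 and 29.0-fold below that of HCC827. With erlotinib TIMP1 had -0.04 ± 0.14 on the log2 scale and did not pass (limma adjusted p = 0.936), and the lines had opposite signs, -0.25 in PC-9 and 0.17 in HCC827. With EGF it was 1.66-fold higher in H322. TIMP3, which is bound to the matrix, had intensities of 2254 in the PC-9 control and 1407 with erlotinib, 1.60-fold lower, and between 21.3 and 29.4 on the other arrays. The PC-9 control was at least 14.6-fold above that of HCC827 and at least 12.7-fold above that of H322. The mean log2 change of TIMP3 with erlotinib, -0.55 ± 0.26, did not pass (limma adjusted p = 0.389).

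**Figure D4:**
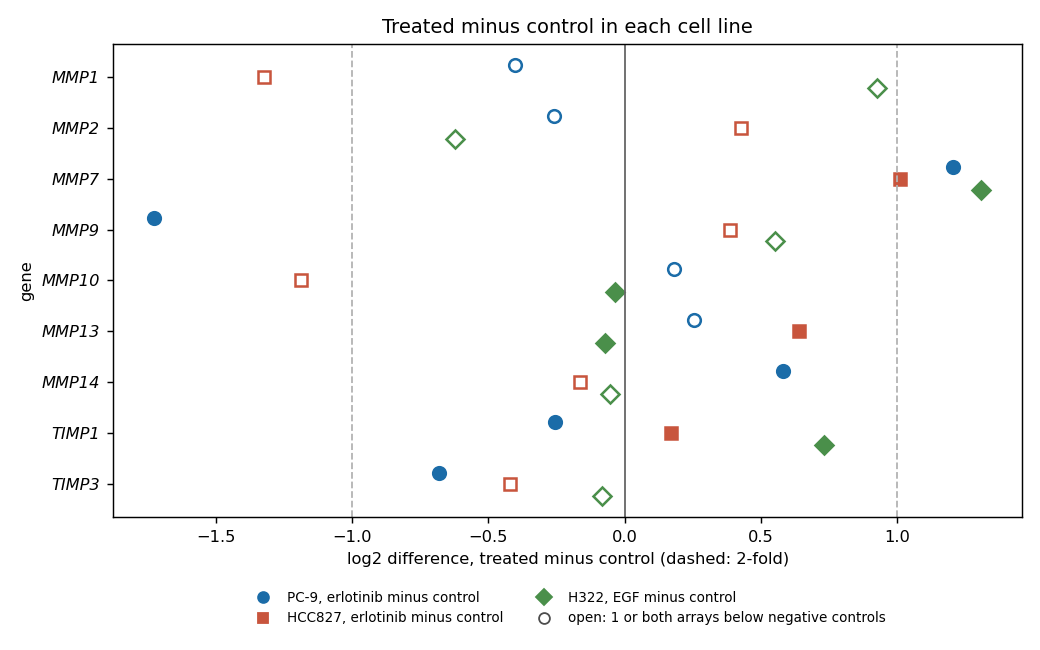
Log2 difference, treated minus control, for each gene and line, with circles for erlotinib in PC-9, squares for erlotinib in HCC827 and diamonds for EGF in H322, filled where both arrays were above background, and dashed lines at 2-fold. MMP7 is the only gene with 3 filled points at or beyond 2-fold higher, and MMP9 in PC-9 is the only filled point beyond 2-fold lower.

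The promoter of TIMP3 is shown beside those of the 2 cluster genes because it is unlike them in base composition. Its 250 bases before the start, at chr22:32801455-32801704 on the plus strand (RefSeq, GRCh38.p14), hold no AP-1 core and no TATA box, so nothing is capitalised.

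TIMP3: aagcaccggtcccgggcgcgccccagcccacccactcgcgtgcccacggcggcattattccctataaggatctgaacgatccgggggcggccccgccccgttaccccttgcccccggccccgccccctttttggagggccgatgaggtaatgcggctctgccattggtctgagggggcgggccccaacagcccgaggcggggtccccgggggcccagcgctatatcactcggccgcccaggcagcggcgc

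This stretch has 72.4% G and C and 26 CpG pairs, where the median of all promoters is 58% and 11. The GC box core CCGCCC occurs in it at 5 places on either strand, and 42.6% of all promoters hold it. The stretches of MMP7 and MMP10 have 33.6% and 34.4% G and C and 3 and 2 CpG pairs.

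In HCC827 with erlotinib MMP7 was the only member at least 2-fold higher, where 2.57% of named genes were, and MMP1 the only 1 lower. There the split of all called genes was 454 higher and 340 lower, and it was 359 and 407 after centring on array medians. Over the 9 members the median log2 change with erlotinib was -0.04, with -0.25 in PC-9 and 0.17 in HCC827, and the median difference with EGF was -0.03. Over all genes these medians lay between 0.00 and 0.01. Of the 9 members 2 (MMP7 and MMP1) had an unadjusted p under 0.05 in limma, as did 2540 of all genes.

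Profiles most like those of 3 members were sought over the 6 arrays by Euclidean distance between log2 profiles centred on their means, as a description. The nearest to MMP7 were CYP2S1 (0.94), NEK6 (1.10) and DAPK1 (1.2), of which CYP2S1 was, like MMP7, higher on the treated array of each line. The nearest to MMP13 were SLC44A5 (0.86), USP18 (1.02) and IFI6 (1.13), genes that were also lower in PC-9 than in HCC827 and H322. The nearest to TIMP1 were CLDN12 (0.28), the receptor tyrosine kinase gene MET (0.76) and GBP1 (0.78), which share its low H322 signals.

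Of the other MMPs and TIMP4, 16 of 17 listed genes were measured, and 3 were above background on at least 1 array: MMP15, MMP24 and TIMP4. Among the 17687 named genes 10362 were. None of the 16 passed in limma, and 0 had an unadjusted p under 0.05, where 2540 of the 17687 named genes did. The median log2 change with erlotinib was -0.10. MMP15, another membrane-anchored protease, was above background on all 6 arrays, with log2 differences of -0.39 in PC-9, 0.67 in HCC827 and 0.40 in H322. Its H322 signals lay below the 99th percentile of the negative controls. MMP24 and TIMP4 were named after their values were seen: MMP24 was above background only in HCC827, 1.55-fold higher with erlotinib, and TIMP4 only in PC-9, 1.06-fold higher.

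ADAM and ADAMTS proteases are related metalloproteinases that shed membrane proteins or cut matrix proteoglycans. Of 24 listed, 23 were measured and 0 passed in limma, with 4 at an unadjusted p under 0.05 (2540 of the 17687 named genes) and a median log2 change of -0.13. The sheddases ADAM10 and ADAM17, which release EGF receptor ligands, had 0.15 ± 0.14 and 0.02 ± 0.16, ADAM9 0.03 and ADAM15 0.11. ADAM28 was above background in HCC827 and H322, at 1.5-fold higher with erlotinib and 1.26-fold higher with EGF. Its H322 signals lay below the 99th percentile of the negative controls. In PC-9, 3 of the 23 were at least 2-fold lower with erlotinib (1.78% of named genes were), as MMP9 was, and were named after their values were seen: ADAM12 (2.16-fold), ADAM19 (2.71-fold) and ADAMTS9 (5.64-fold). All 3 were below background on the arrays of HCC827 and H322.

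Activators and other inhibitors of MMPs gave 21 of 23 measured genes, of which 0 passed in limma. Their median log2 change was -0.01. An unadjusted p under 0.05 in limma was found for 5 of the 21, beside 2540 of the 17687 named genes. The plasminogen activator genes PLAT and PLAU, whose products start the activation of MMP precursors through plasmin, had -1.37 ± 0.37 and -0.65 ± 0.19 (limma adjusted p = 0.138 and 0.178). Their log2 differences were -2.26 and -1.11 in PC-9, and only -0.47 and -0.20 in HCC827. TFPI2, an inhibitor of plasmin and of some MMPs, had -1.01 ± 0.24 (limma adjusted p = 0.0984) and was 2.85-fold lower in HCC827. The lysosomal protease gene CTSL had 0.41, CD44, a receptor that can dock MMPs on the cell surface, -0.22, and LRP1, which clears MMPs by endocytosis, 0.09. With EGF in H322 CD44 was 1.67-fold higher and LRP1 1.29-fold lower. The H322 signals of both genes lay below the 99th percentile of the negative controls.

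Matrix and cell surface substrates of epithelial cells gave 19 of 25 measured genes, of which 0 passed in limma. Their median log2 change was 0.01. Of the 19, 3 had an unadjusted p under 0.05 in limma, as did 2540 of the 17687 named genes. The matrix glycoprotein gene THBS1 had -1.67 ± 0.44 (limma adjusted p = 0.13) and was 7.02-fold lower in HCC827 and 1.45-fold lower in PC-9. Its HCC827 signal with erlotinib, 6.97 on the log2 scale, lay just above the background of 6.92 on that array. Fibronectin (FN1), the collagen gene COL4A2 and the syndecan SDC4 had 0.38, 0.37 and -0.35. With EGF in H322, LAMB1 and HSPG2, both of the basement membrane, were 1.47-fold and 1.45-fold lower. The H322 signals of both genes lay below the 99th percentile of the negative controls.

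Of 15 genes of transcription factors known for sites in MMP promoters (AP-1 and ETS factors and the runt factor RUNX2), FOSL1 and JUN fell with erlotinib, ELF3, an epithelial ETS factor, rose, and 12 did not pass, where 1.48% of all named genes passed. The median was -0.18. Of the 15, 8 had an unadjusted p under 0.05 in limma, as did 2540 of the 17687 named genes. This list was chosen with earlier results of these data known. Beside the MMP7 values, FOSL1 had -5.13 ± 0.18 with erlotinib (limma adjusted p = 9.2e-05) and was 4.59-fold higher with EGF in H322. JUN had -1.53 ± 0.27 (limma adjusted p = 0.0442) and was 1.30-fold higher with EGF. ELF3 had 2.01 ± 0.27 (limma adjusted p = 0.0225) and was 1.09-fold lower with EGF. Without the block for the line none of the 3 passed (limma adjusted p = 1.0 each). Without the trend FOSL1 still passed (limma adjusted p = 0.00899) and JUN and ELF3 did not (0.176 and 0.146). When genes below background throughout were left out, FOSL1 passed (limma adjusted p = 0.00149) and JUN and ELF3 did not (0.0678 and 0.0524), and JUN was also lost with an offset of 16 (0.0548). Over these alternatives, run after seeing the data, the lowest limma adjusted p was 1.86e-124 for FOSL1, 8.14e-12 for JUN and 1.46e-21 for ELF3, each with dim signals set to background. Dim signals then share the same value on an array, and limma borrows spread from all genes. These lowest values are therefore no measure of the spread over the lines. ETV5 was 10.3-fold lower in PC-9, 1.04-fold higher in HCC827 and 2.07-fold higher with EGF, and did not pass (limma adjusted p = 0.308). FOSL1 and JUN had opposite signs with erlotinib and EGF, and MMP7 the same sign, where EGF has 1 array per condition. In H322 both JUN signals and the control signals of FOSL1 and ETV5 lay below the 99th percentile of the negative controls. Both MMP7 signals in H322 did too. FOSL1 with erlotinib in PC-9, at 7.78 on the log2 scale, lay close to the background of 7.35. Whether any of these factors had a part in the MMP7 signal was not tested.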

How the data were processed

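Total RNA was extracted with Trizol and hybridised as biotin-labelled cRNA, per the labels' protocols. The authors deposited probe set intensities on a linear scale, from 3.64 to 295568, and the submitters' processing notes name Affymetrix Expression Console. The sources used here do not give its version, background correction, scaling or genome build. Array medians lay between 148 and 157, so the arrays share a scale that would hide a change common to most genes. Of 24351 probe sets, 17709 had 1 gene symbol and 6642 none in the platform annotation. The brightest was kept for the 20 genes with several.

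On log2(intensity + 1), erlotinib was compared with control by limma 3.58.1 (R 4.3.3), with a trend and the cell line as block. P-values are two-sided and adjusted by Benjamini-Hochberg across the 17687 genes, with 0.05 as threshold. Since the residual degrees of freedom are 1, against 6.58 borrowed from other genes, SE and p rest mostly on other genes' spread. The line pairs the arrays: those of a line correlated across genes at 0.991 (PC-9) and 0.988 (HCC827), the controls of these lines at 0.907. Counts at 2-fold need the higher signal to reach 7.28, the median probe set. The script was checked on simulated data.

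The members and gene lists were chosen with earlier results of these data known. List genes named are those past the threshold, up to 4 with the largest change with erlotinib and up to 2 with EGF, among genes above background on at least 1 array of each pair that the ranking uses (both erlotinib pairs, or the EGF pair). Profiles were sought for the 3 members with the largest change among those above background on 3 or more arrays. Alternatives were the offset, scaling, dim signals, filter, probe sets, block, trend, level and fold.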

Additional observations from a re-analysis of the deposited data

Results flagged for a closer look

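TIMP1 was above background on both arrays of PC-9 and of HCC827, and its erlotinib minus control difference had opposite signs in these lines: -0.25 in PC-9 and 0.17 in HCC827 on the log2 scale. With 1 array per condition in each line, the difference between the lines was not tested.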

How the results depend on the processing

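Limma called 262 genes with erlotinib. It called 166 with an offset of 16, 617 after median centring, 954 after quantile normalization, 1115 when signals below background were set to it, 96 when genes below background throughout were left out, 1 with no trend of the spread, and 0 with no block for the line, where 186 had an unadjusted p under 0.05. Of the members 1 passed, MMP7, against 2 with dim signals set to background (MMP7 and MMP9) and 0 with the filter, with no trend or with no block. MMP7 had between 1.08 and 1.11 in all 9 fits, and 1.01 or 1.21 with either line left out, where no test is possible. MMP2, at 0.08, had -0.17 with dim signals set to background. At 1.5-fold 1563 genes were counted in PC-9, 2255 in HCC827 and 356 in H322, against 478, 794 and 33 at 2-fold. In H322 the count was 20 with dim signals set to background and 133 with no minimum level. Of the 54 member signals 25 were above background, and 14 remained so with the 99th percentile of the negative controls, an alternative chosen after seeing the data. The 11 others were MMP1 in the HCC827 control, MMP7 in the PC-9 control and both H322 arrays, MMP9 in PC-9 with erlotinib, MMP10 on both H322 arrays, MMP13 and TIMP1 in the H322 control, and MMP14 on both PC-9 arrays. The cause of these shifts was not tested. The number of arrays limits the precision of every value.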
